A study of Ovis aries with 20 samples.

Results

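HAND1 (heart and neural crest derivatives expressed 1) was measured in 10 newborn lambs, in a piece of left ventricle (LV) and a piece of the septum between the ventricles. It is 1 gene of the 870 that could be named on the array. Its probes were all those that the scanner files name for the gene. The files spell the name HAND1 on 0 spots, and the gene was found under its older symbol HXT with the transcript NM_001009785, which the RefSeq gene table (assembly ARS-UI_Ramb_v3.0) lists for HAND1. That gave 2 probes of 15008, each printed once on every array. The leading probe, A_70_P039547, is the brighter one and represents the gene, and the overlapping probe, A_70_P039546, is given beside it.

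Singleton lambs were born to ewes infused with vehicle (control, 5 lambs) or with cortisol at 1 mg/kg/day (cortisol, 5 lambs) from about day 115 of gestation until birth, and hearts were collected 10 to 480 minutes after birth. The labels add the word telemetry to every array. All 4 groups (LV control, LV cortisol, septum control, septum cortisol; 5 arrays each) come from newborns, so no fetal stage is among them. Whole pieces of wall were used, in which fewer cells of a type and less RNA per cell cannot be told apart. LV and septum arrays of a treatment share replicate numbers. The labels do not say that a number is 1 lamb, and same-numbered arrays are treated as 1 lamb here because each array's deviations from its group correlated best with those of its own number, in 10 of 10 pairs (r 0.45 to 0.81).

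HAND1 is a basic helix-loop-helix transcription factor that pairs with ubiquitous E proteins to bind E-box DNA. In the mouse embryo it marks the outer curvature of the future left ventricle, while its relative HAND2 prevails on the right side, and it is needed for growth of the left chamber. Bone morphogenetic proteins (BMPs) with their SMAD effectors induce it in several embryonic tissues, and a four-and-a-half-LIM protein has been reported to restrain it. In the mouse fetal heart it has been reported to act downstream of hypoxia-inducible factor on genes of lipid use.

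Both probe sequences are shown because their overlap sets how far they count as separate measurements. Capitals mark the 40 bases that both hold.
A_70_P039547: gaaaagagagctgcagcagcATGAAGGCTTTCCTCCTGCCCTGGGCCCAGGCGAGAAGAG
A_70_P039546: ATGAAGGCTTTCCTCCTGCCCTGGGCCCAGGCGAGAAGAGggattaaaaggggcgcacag
Per the probe annotation in the files, the leading probe covers positions 757 to 816 of the transcript and the overlapping probe positions 777 to 836. The pair spans 80 bases, and each probe has 60 bases with a GC content of 60%. No other probe of the array shares a run of 20 bases with either. The files give these probes no genome position, and the exon they lie in was not analysed here.

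HAND1 was a dim but measured transcript. Both probes were well above background on 20 of 20 arrays, with 0 outlier flags and 0 saturated spots. The processed intensity of the leading probe was 57.6 to 158 units in the LV and 33.6 to 102 units in septum. Its raw spot means were 87.9 to 202 units in the LV and 59.7 to 138 units in septum, against a local background of 16 to 29 units. The overlapping probe gave 27.4 to 123 units in the LV and 10.8 to 44.3 units in septum. Levels below are log2 of the processed intensity relative to the array's own 75th percentile, so that 0 means a spot as bright as that percentile.

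Regions were spread unevenly over 4 slides: 6 septum arrays were on slide 1, while slide 3 held 6 LV arrays, slide 4 held 1 LV array and slide 2 held 3 LV and 4 septum arrays. The 75th percentile was 99.2 to 402 units on LV arrays and 155 to 441 units on septum arrays, and 58.1% to 72.4% of probes were well above background. The libraries were checked against cardiomyocyte markers, of which only TPM1 and MB of 16 could be named. Their summed level was 406 to 753 times the 75th percentile on the 5 LV arrays with both values and 345 to 713 times in septum. The other 5 LV arrays, all on slide 3, lost TPM1 or both markers to outlier spots and had no such check. The p-values of the cortisol tests, the lamb-blocked fits and the per-lamb tests measure the spread among these lambs. Those of the unpaired region fits measure the spread among arrays taken as independent, and leave the pairing by lamb out.

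In control lambs HAND1 was lower in the septum than in the LV of the same heart, 5 lambs of 5. Control 1 had a level of -0.84 in the LV and -2.10 in septum, control 2 had -0.98 and -2.11, and control 3 had -0.21 and -1.83. Control 4 had -1.53 in the LV and -3.18 in septum, and control 5 had -1.14 and -2.88. Every control LV level lay above every control septum level, so the groups did not overlap. The same held for 366 of 9957 probes with values on all these arrays (3.68%), and 5.02% did not overlap in either direction. The control mean was -0.94 ± 0.48 (SD, n = 5) in the LV and -2.42 ± 0.58 (SD, n = 5) in septum.

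The lambs of cortisol-infused ewes showed the same direction, again in 5 of 5. Cortisol 1 had 0.55 in the LV and -1.53 in septum, cortisol 2 had -0.87 and -1.92, and cortisol 3 had 0.26 and -1.12. Cortisol 4 had -1.34 in the LV and -2.93 in septum, and cortisol 5 had -1.83 and -2.32. Here the regions overlapped across lambs, because the LV levels of cortisol 4 and cortisol 5 fell below the septum level of cortisol 3. The cortisol mean was -0.65 ± 1.02 (SD, n = 5) in the LV and -1.96 ± 0.70 (SD, n = 5) in septum.

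The 4 group means thus ran from LV cortisol, the highest, through LV control and septum cortisol to septum control, the lowest. Neighbours in that order overlapped: LV control (-1.53 to -0.21) and septum cortisol (-2.93 to -1.12) shared part of their range, as did the cortisol and control groups of each region.

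**Figure D1:**
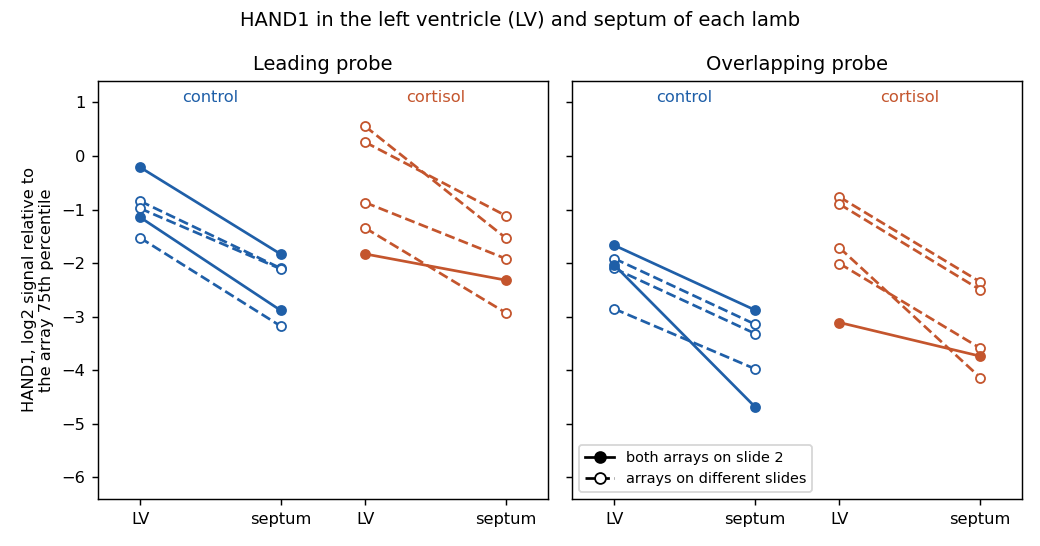
HAND1 level (log2 of processed signal relative to the array's 75th percentile) in LV and septum, with 1 line per lamb, control lambs on the left and cortisol lambs on the right of each panel; the left panel shows the leading probe and the right panel the overlapping one. Filled points and solid lines are the 3 lambs whose arrays both lay on slide 2. All 10 lines fall from LV to septum for both probes.

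Averaged over control and cortisol lambs, septum was below LV by a log2 difference of -1.40 (SE 0.30, 95% confidence interval -2.03 to -0.76), or 2.64-fold lower. In the limma fit of 4 groups the adjusted p was 0.0486, with 40 of 10069 probes called (0.397% called) and 37 of them lower in septum (0.367%) and 3 higher (0.0298%). With the lamb as a block, which uses the pairing, the SE was 0.13, the interval -1.69 to -1.10 and the limma adjusted p 3.29e-04. That fit called 1846 probes (18.3% called), 956 of them lower in septum (9.49%) and 890 higher (8.84%), so a septum-LV difference that passes is common on these arrays when lambs are paired. Leaving out any 1 lamb other than cortisol 5 ended the unpaired call (limma adjusted p up to 0.152), while without cortisol 5 it was 0.0120 and 289 probes were called; with the lamb block, HAND1 passed without each lamb in turn.

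The size of the HAND1 difference was less common than its passing. Of 9929 probes with a value on every array, 14 (0.141%) had a larger mean fall from LV to septum than the leading probe, and 312 (3.14%) were lower in septum in 10 of 10 lambs. HAND1 was chosen with earlier results of these data known, and neither this rank nor the HAND1 p-values allow for that choice.

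The per-lamb differences of the leading probe ranged from -2.09 in cortisol 1 to -0.49 in cortisol 5, with a mean of -1.40 ± 0.44 (SD, n = 10). An exact two-sided sign-flip permutation test gave p = 0.00195, the smallest that 10 lambs allow. Control lambs differed by -1.48 ± 0.27 (SD, n = 5) and cortisol lambs by -1.32 ± 0.60 (SD, n = 5), each with an exact permutation p of 0.0625, the smallest 5 lambs allow.

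Taken by treatment, the unpaired limma fit did not call the region difference in control lambs (adjusted p = 0.309; 1 probe called, a lower one, 0.00993%) or in cortisol lambs (adjusted p = 1.00; 0 called, 0%, with 392 at an unadjusted p under 0.05). With the lamb as a block, both passed. The limma adjusted p was 0.00451 in control lambs (7.75% of probes called, 5.35% lower and 2.39% higher) and 0.0115 in cortisol lambs (1.31% called, 0.834% lower and 0.477% higher).

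Within the slide that held both regions, the direction was the same in 3 of 3 lambs. On slide 2, control 3 differed by -1.62, control 5 by -1.74 and cortisol 5 by -0.49, with a mean of -1.28 ± 0.69 (SD, n = 3). Cortisol 5 thus had a much smaller difference than both control lambs on that slide. The exact permutation p was 0.25, the smallest 3 lambs allow. In the other 7 lambs, whose arrays lay on different slides, the mean was -1.45 ± 0.36 (SD, n = 7; exact permutation p = 0.0156, the smallest possible).

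With slide as a fixed block and no lamb block, the difference was -1.50 (SE 0.52) and was no longer called (limma adjusted p = 0.771, 0 probes called). On the 7 arrays of slide 2 alone it was -1.24 (SE 0.39, limma adjusted p = 0.589, 0 probes called), where the 1 LV cortisol array is assumed to vary like the other groups. Region and slide cannot be told apart for the lambs outside slide 2.

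**Figure D2:**
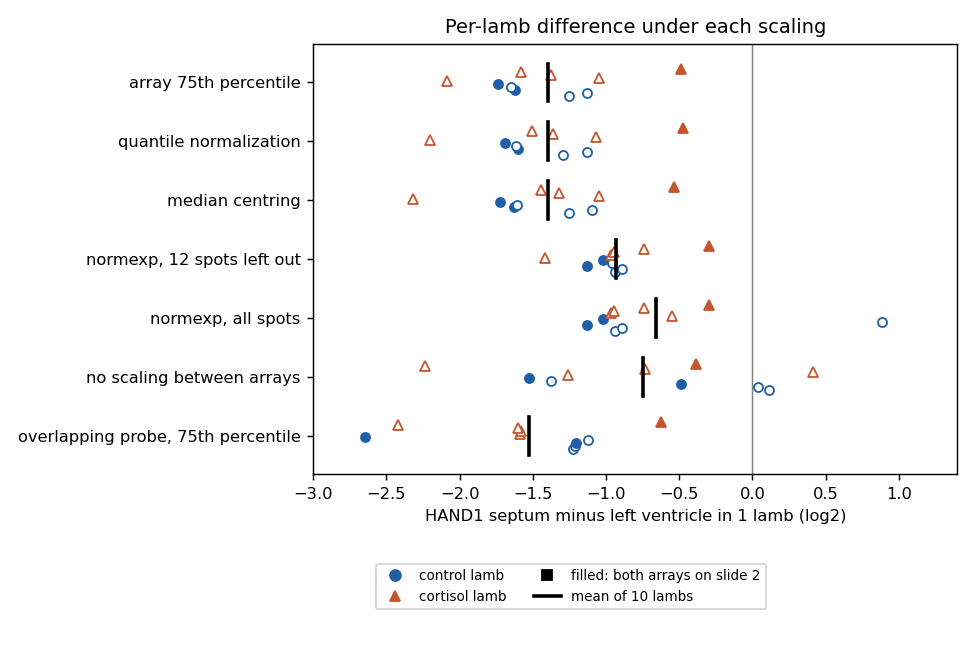
Septum minus LV of HAND1 in each of the 10 lambs (horizontal axis, log2), under 6 ways of scaling the leading probe and, in the last row, for the overlapping probe; bars are means and filled points are lambs with both arrays on slide 2. The mean lies between -1.52 and -0.66, and points above 0 occur only with no scaling (3 lambs) and with the background correction over all spots (1 lamb).

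Array brightness moved with the HAND1 level among LV arrays, and it was higher in septum in most lambs. Within the 10 LV arrays, brighter arrays had lower HAND1 levels (Pearson r = -0.79 between the level and the log2 75th percentile, permutation p = 0.00595, adjusted 0.0178; Spearman rho = -0.92, permutation p = 3.70e-04, adjusted 0.00111; 3 relations computed). Without the 2 LV arrays farthest from the median, r was -0.76. The percentile enters the level itself, since each level is relative to it. In septum, r was -0.55 (permutation p = 0.097; rho = -0.47, p = 0.177) and rested on 2 arrays, without which it was 0.19.

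The same relation was computed across lambs for the differences between walls. The septum array was brighter in 9 of 10 lambs, by up to 1.46 on the log2 scale in cortisol 2, and the correlation of the 2 gaps was 0.11 (permutation p = 0.773; rho = 0.26, p = 0.469), or -0.14 without the 2 farthest lambs. In cortisol 4 the septum array was dimmer than the LV array by 0.65 on the log2 scale, and its HAND1 difference was -1.58. With the log2 75th percentile as a covariate beside the lamb block, the region difference was -1.47 (SE 0.20, limma adjusted p = 0.00942).

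Without any scaling between arrays the picture was weaker. The unscaled difference was -0.75 ± 0.84 (SD, n = 10; exact permutation p = 0.0273), and HAND1 was lower in septum in 7 of 10 lambs. Control 1 (0.11), control 2 (0.04) and cortisol 2 (0.41) were the exceptions; they were the 3 lambs with the widest brightness gaps. On that scale the median of all probes tested was itself 0.68 higher in septum.

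Background correction by the normexp model starts from the raw spot and local background signals and adds an offset of 50 units to every spot. The leading probe's processed signals were 33.6 to 158 units. This correction gave a smaller HAND1 difference, and the part of the offset was not tested. Run on all spots it gave -0.66 and no call (limma adjusted p = 1.00, or 0.487 with the lamb as a block), with control 4 at 0.88 in the opposite direction. On 2 septum arrays, control 4 and cortisol 1, 12 spots in all had a local background over 100 units above their signal, and these spots raised the 75th percentile after correction to 1270 and 967 units, from 382 and 236 units without them. With those 12 spots left out, the difference was -0.93 ± 0.28 (SD, n = 10), lower in septum in 10 of 10 lambs, with a limma adjusted p of 0.0250 (4.55e-05 with the lamb as a block). The median of all probes under that setting was -0.12.

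**Figure D3:**
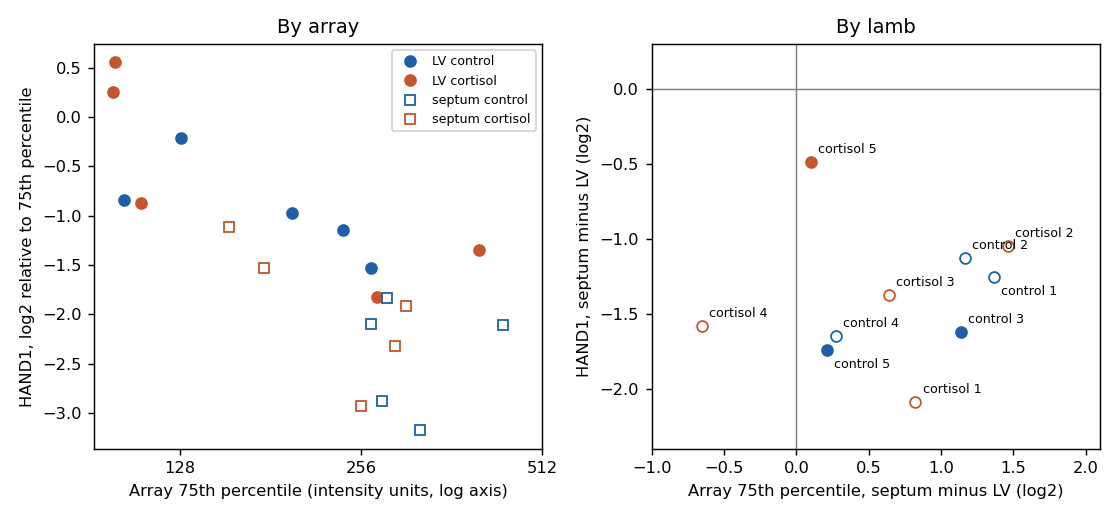
Left, HAND1 level of each of the 20 arrays against the array's 75th percentile (intensity units, log axis); right, septum minus LV of HAND1 in each lamb against the same difference of the log2 75th percentile. On the left the highest levels lie on dim LV arrays; on the right all 10 lambs lie below 0 for HAND1, including cortisol 4, whose septum array was the dimmer.

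The overlapping probe repeated the region difference. Its level was -1.91 in the LV and -3.14 in septum of control 1, -2.10 and -3.31 in control 2, -1.67 and -2.87 in control 3, -2.85 and -3.97 in control 4, and -2.04 and -4.68 in control 5. Control 5 stood apart with the widest gap. In cortisol lambs it was -0.76 in the LV and -2.35 in septum of cortisol 1, -2.01 and -3.59 in cortisol 2, -0.90 and -2.50 in cortisol 3, -1.71 and -4.14 in cortisol 4, and -3.11 and -3.74 in cortisol 5.

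For this probe septum was below LV by -1.52 (SE 0.31, limma adjusted p = 0.0397; SE 0.18 and adjusted p = 7.92e-04 with the lamb as a block), in 10 of 10 lambs (exact permutation p = 0.00195). Across the 20 arrays the probes had r = 0.95, and across the 10 lamb differences r = 0.55. They share 40 bases and the same RNA, so these are not separate experiments.

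Maternal cortisol did not shift HAND1 beyond the spread among lambs. In the LV the cortisol minus control difference was 0.29 (SE 0.45, 95% confidence interval -0.68 to 1.27; limma adjusted p = 0.930, exact permutation p = 0.579). In septum it was 0.46 (SE 0.37, interval -0.35 to 1.26; limma adjusted p = 0.818, exact permutation p = 0.294). Both intervals reach above 1 log2 unit and below 0, so they do not show that the groups were alike.

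Across the array, limma called 0 of 9791 probes in the LV (0% called, 508 at an unadjusted p under 0.05) and 0 of 10369 in septum (0% called, 385 unadjusted). In simulated data of this size, limma recovered 25% of changes of 1 log2 unit in the LV and 30% in septum. The simulation also changed 100 probes by 2 log2 units, of which 82% were recovered in the LV and 81% in septum. It drew noise independently for each probe and held no slide or brightness effect, so recovery on the real arrays can differ. Its shares are over the changed probes and are not specific to HAND1. The overlapping HAND1 probe gave 0.42 (SE 0.42) in the LV and 0.34 (SE 0.43) in septum.

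The cortisol effect did not differ detectably between the regions. The difference of the effects, septum minus LV, was 0.16 (SE 0.61, interval -1.11 to 1.44; limma adjusted p = 1.00), and 0.16 with SE 0.27 (interval -0.43 to 0.75; adjusted p = 0.997) with the lamb as a block. Averaged over both walls of a lamb, cortisol was above control by 0.38 (exact permutation p = 0.405).

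The cortisol difference was above 0 on slides 1 and 3 and below 0 on slide 2, with few arrays on each. On slide 3 (3 control and 3 cortisol LV arrays) it was 1.096 (SE 0.40, limma adjusted p = 0.414), while on slide 2 it was -1.15, a value with no spread for cortisol because it sets 1 cortisol array, the lowest of its group, against 2 control arrays. In septum it was 0.94 (SE 0.37, adjusted p = 0.284) on slide 1 (3 against 3) and -0.27 (SE 0.45, adjusted p = 0.998) on slide 2 (2 against 2). Cortisol 1 and cortisol 3, both off slide 2, had the highest HAND1 of their group in both walls, and their LV arrays were the dimmest of all, with 75th percentiles of 99.8 and 99.2 units. Without the LV array of cortisol 1 the LV difference was -0.01.

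**Figure D4:**
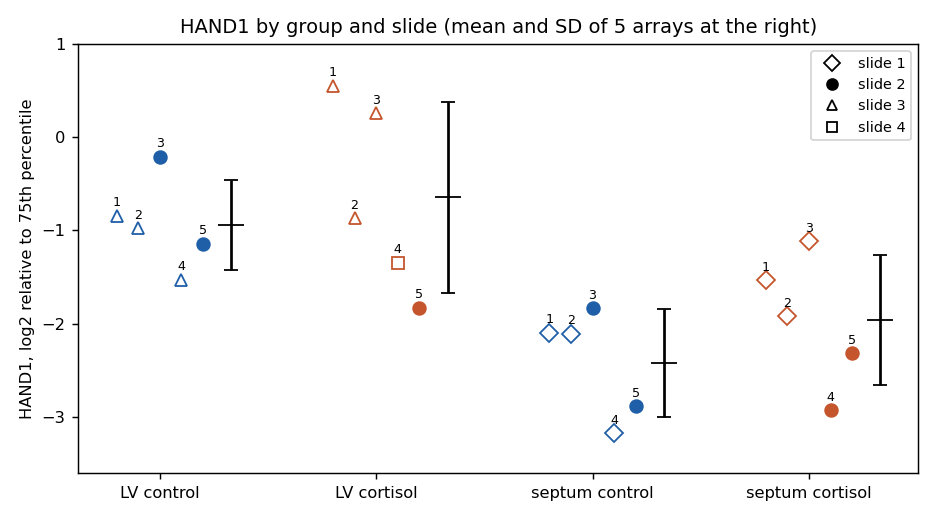
HAND1 level of the leading probe on each of the 20 arrays by group, with the lamb number above each point, the marker showing the slide, and the mean ± SD of 5 arrays at the right of each group. Cortisol and control overlap in both regions, and the cortisol arrays of slide 2 lie at the low end of their groups.

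Few of the genes that HAND1 is known to work with could be named on this array. Of 50 other cardiac transcription factors only ISL1, a progenitor factor, could be named, and it was well above background on 1 of 20 arrays, so no comparison with HAND2, GATA4 or TBX5 is given. None of 6 reported HAND1 targets could be named. These counts describe the naming of the probes, since 1418 of 15008 (9.4%) had a gene name.

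Of 25 partners and regulators, 10 could be named and 8 were tested between regions. Unpaired, 0 of 8 passed, against 0.397% of all probes. With the lamb as a block 1 of the 8 rose in septum and 0 fell, against 18.3% of all probes called. The median difference of the 8 was 0.05, and that of all probes 0.03. SMAD4, the common partner of BMP-activated SMADs, was 0.35 higher in septum (SE 0.11, blocked limma adjusted p = 0.0493), a call that was lost under 3 other scalings (adjusted p = 0.0523, 0.0708 and 1.00).

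The other BMP-related members did not pass. SMAD5, a BMP effector, differed by 0.28 (SE 0.15), the ligand BMP4 by 0.34 (SE 0.23) and the ligand BMP7 by 0.08 (SE 0.08), all with the lamb as a block. BMP4 was called lower in septum (-0.40, limma adjusted p = 0.00896) under the background correction with 12 spots left out, where SMAD5 was at -0.03. BMP4 was well above background on 5 of 10 LV and 9 of 10 septum arrays. BMP2 was well above background on 0 arrays.

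The hypoxia-inducible factors that have been placed upstream of HAND1, named here for that role, did not pass: HIF1A differed by -0.07 (SE 0.16), EPAS1 by 0.02 (SE 0.08) and their partner ARNT by -0.06 (SE 0.12). FHL1, a four-and-a-half-LIM protein, differed by -0.13 (SE 0.12), and its relative FHL2 could not be named. Cortisol differences of the partners did not pass in either region, where 0% of all probes were called. The smallest unadjusted limma p-values belonged to FHL1 in the LV (0.76, SE 0.36, adjusted p = 0.877) and SMAD1 in septum (0.85, SE 0.41, adjusted p = 0.818). SMAD1 was well above background on only 2 of 5 control and 3 of 5 cortisol septum arrays, and its difference was 0.41 under normexp with 12 spots left out and 0.24 under normexp on all spots. HIF1A, chosen after its values were seen, differed by 0.87 (SE 0.47, adjusted p = 0.877) in the LV and 0.79 (SE 0.40, adjusted p = 0.818) in septum. Of the 8 partners tested in the LV, 7 were above 0 with a median of 0.35, and 7 of 9 in septum with a median of 0.21. Over all probes tested the medians were -0.0072 in the LV and 0.0341 in septum. The partners were measured in the same lambs, so they are not separate observations.

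Among fatty acid genes, 9 of 31 could be named and 8 were tested between walls. With the lamb as a block, 2 fell in septum and 1 rose, against 9.49% of all probes lower and 8.84% higher. Unpaired 0 of 8 passed, against 0.397% of all probes. The list's median was -0.24. CPT1A, the liver-type enzyme that commits long-chain fatty acids to mitochondria, was 1.14 lower in septum on the log2 scale (-1.14, SE 0.13, blocked limma adjusted p = 6.98e-04), in 10 of 10 lambs. CPT1B, the muscle form, differed by 0.13 (SE 0.07) and did not pass. SLC25A20, the carnitine carrier of the inner membrane, was 0.28 higher (SE 0.07, adjusted p = 0.0269), a call lost under a percentile taken over probes detected on all arrays (adjusted p = 0.0501) and under normexp (1.00), and opposite in sign (-0.10) with 12 spots left out.

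FABP4, a fatty acid chaperone of fat and capillary cells, was the other one called lower, but it was well above background on only 3 of 5 arrays in each LV group and 2 of 5 in each septum group. Its difference therefore rests in part on values not well above background: it was -2.27 (SE 0.54, adjusted p = 0.0185) as scaled, -0.92 under normexp with 12 spots left out and -0.53 under normexp on all spots. PPARA and PPARG, lipid-sensing receptors named for their role, differed by 0.06 (SE 0.08) and -0.32 (SE 0.15) and did not pass.

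Among hypoxia-responsive genes, 6 of 16 could be named and 5 were tested. Of these, SLC2A3, a glucose transporter, rose by 0.25 in septum with the lamb as a block (SE 0.07, limma adjusted p = 0.0311), and 0 fell. In that fit 8.84% of all probes rose and 9.49% fell. The SLC2A3 call was lost under 3 other scalings. VEGFA, the endothelial growth factor, differed by -0.47 (SE 0.22, adjusted p = 0.149). In the cortisol comparison all 5 lay above 0 in both walls, with medians of 0.28 in the LV and 0.55 in septum. Of the 5, 0 passed, and 0% of all probes were called in each wall. The medians of all probes tested were -0.0072 in the LV and 0.0341 in septum. These genes were measured in the same lambs, so they are not separate observations.

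Some markers of other cell types differed between the walls and most did not. Of 8 fibroblast markers 4 could be named, and 3 fell in septum with the lamb as a block, where 9.49% of all probes fell. Unpaired 0 passed, against 0.397% of all probes. COL3A1, a fibrillar collagen, was at -1.34 (SE 0.15, blocked limma adjusted p = 6.58e-04) and COL1A2 at -1.10 (SE 0.13, adjusted p = 8.62e-04), each lower in 10 of 10 lambs; COL1A1 was at -0.58 (SE 0.13, adjusted p = 0.0153). The proteoglycan DCN was at -0.03 (SE 0.07). The summed level of the 4 ranged from 32 to 91.5 times the 75th percentile in the LV and from 31.1 to 73.2 times in septum. It was lower in septum in 7 of 10 lambs. That sum adds unlogged levels, so it mostly follows DCN. In the LV of control 1, DCN was at 5.69, COL3A1 at 2.15, COL1A2 at -0.34 and COL1A1 at -1.33. The part of the fibroblast markers in the HAND1 difference was not tested.

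Of 6 endothelial markers 4 could be named, and KDR, the VEGF receptor, fell by 0.72 in septum on the log2 scale (SE 0.11, blocked limma adjusted p = 0.00238), in 10 of 10 lambs. KDR was the 1 of 4 called, where 9.49% of all probes fell. PECAM1 (0.14, SE 0.11), TEK (0.34, SE 0.18) and TIE1 (0.07, SE 0.11) did not pass. The summed level of the 4 was 6.87 to 22.3 in the LV and 9.59 to 23.7 in septum. It also adds unlogged levels and mostly follows PECAM1, at 3.53 in the LV of control 1, where KDR was at 1.14. The cardiomyocyte markers TPM1 and MB did not pass; outlier spots left MB with 16 arrays and TPM1 with 15, the 5 missing ones all LV arrays, so that 5 lambs gave a TPM1 difference. The blocked difference was -0.08 (SE 0.08) for MB and -0.48 (SE 0.24) for TPM1, or -0.0452 for TPM1 with outlier spots kept. Of 6 atrial and 7 conduction markers 0 could be named, so those cell types could not be followed. Of 3 adipocyte markers 2 were named and LEP fell by 0.42 in septum on the log2 scale (SE 0.11, blocked limma adjusted p = 0.0263), where 9.49% of all probes fell. PLIN1, the other, differed by -0.22 (SE 0.13) and did not pass. Of the leukocyte, red cell, epicardial, skeletal muscle and smooth muscle markers, 8 were tested between regions and 0 passed, against 18.3% of all probes with the lamb as a block.

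Under normexp on all spots the blocked calls of CPT1A (-1.002), COL1A2 (-0.64), COL1A1 (-0.30), KDR (-0.48), LEP (-0.0623) and FABP4 were lost, and that of COL3A1 held (limma adjusted p = 0.0355). With the 12 spots left out all of them passed, with CPT1A at -0.94, COL1A2 at -0.73, COL1A1 at -0.47, KDR at -0.52 and LEP at -0.42. In the cortisol comparison, where 0% of all probes were called in each region, 0 of all listed markers passed. The widest shift among them was that of TNNC2, a fast skeletal muscle troponin named after its values were seen, at 2.13 (SE 0.73, limma adjusted p = 0.877) in the LV and 1.91 (SE 0.60, adjusted p = 0.818) in septum.

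**Figure D5:**
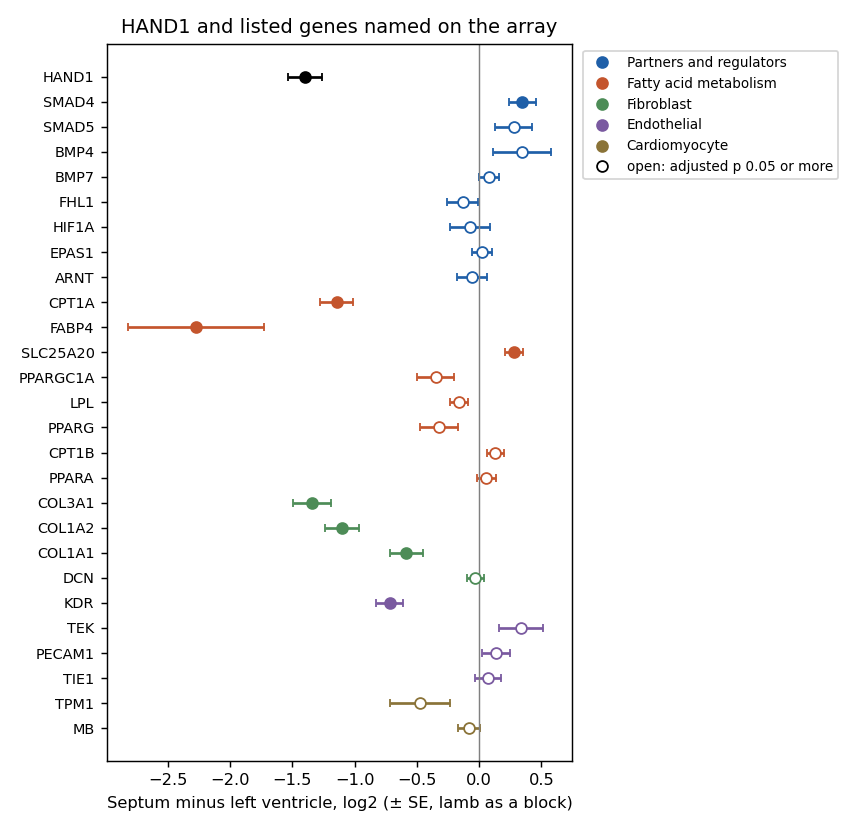
Septum minus LV (log2, ± SE, lamb as a block) for HAND1 and for members of 5 lists that could be named and tested; filled points have an adjusted p under 0.05 and open points do not. HAND1 (-1.40) lies beside COL3A1 (-1.34) and CPT1A (-1.14), while its named partners lie between -0.13 and 0.35.

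Genes whose level followed HAND1 across the arrays were found by Pearson r with the leading probe among 524 named genes, whose median r was 0.12. The 20 arrays share 10 lambs and their brightness, so these are descriptions. The highest were JUND, an AP-1 subunit (r = 0.89; 0.89 in the LV, 0.87 in septum, 0.63 over lamb differences), and ATP5PD, an ATP synthase subunit (0.85; 0.82, 0.77 and 0.71). They were followed by the endothelin receptor EDNRA (0.85; 0.79, 0.84 and 0.52), the ribosomal protein RPS6 (0.82; 0.82, 0.78 and 0.10) and the adaptor YWHAE (0.81; 0.62, 0.81 and 0.64). The lowest were ATP6V1E1, a proton pump subunit (-0.80), CD93, an endothelial surface protein (-0.79), and SMPD1, a lysosomal sphingomyelinase (-0.76).

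These genes also followed array brightness. Their r with the log2 75th percentile was -0.57 for JUND, -0.83 for ATP5PD, -0.65 for EDNRA, -0.87 for RPS6 and -0.68 for YWHAE, and 0.65 to 0.71 for the 3 lowest. With no scaling between arrays, r with HAND1 was 0.72 for JUND, 0.38 for EDNRA, 0.28 for YWHAE, 0.25 for ATP5PD and 0.08 for RPS6. JUND was thus the one of the 5 that stayed above 0.7 under all the scalings run (0.72 to 0.89). CD93 turned from -0.79 to 0.32 under the background correction with 12 spots left out.

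JUND was chosen for its likeness to HAND1 over both walls, so its levels are a description. They ran from -0.32 to 1.45 in the LV and from -1.32 to 0.77 in septum, and the septum minus LV difference was -0.72 (SE 0.13 with the lamb as a block). Its cortisol differences were 0.14 (SE 0.36) in the LV and 0.23 (SE 0.41) in septum.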

How the data were processed

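RNA of the LV and septum was hybridised to 20 one-colour (Cy3) Agilent sheep arrays, from 100 ng of RNA each, per the labels. Processed, raw and local background spot intensity values were deposited as scanner output of Agilent Feature Extraction 10.1.1.1, per the submitters' processing notes and the file headers, not scaled between arrays. A deposited log2 value table, for which those notes name limma without a version, was an alternative only; its build and annotation were not given in the sources used here, and 0 columns of other samples were in it.

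Levels are log2 of processed intensity, scaled by the 75th percentile of each array; outlier spots were left out. A region test took probes detected (well above background) on at least 10 of 20 arrays, a cortisol test those detected on at least 5 of a region's 10. The two-sided tests were run in limma 3.58.1 (R 4.3.3; statmod 1.5.0 for the random block), and p-values were adjusted by Benjamini-Hochberg over all probes tested, with calls at 0.05; single values had exact permutation tests. Naming used Python 3.11.15, figures matplotlib 3.10.9. LV and septum residuals of a lamb correlated at 0.45 to 0.81, highest with their own partner in 10 of 10, so lambs were blocked as the alternative. HAND1 and the gene lists were chosen with earlier results of these data known; the naming rule took up to 4 members of a list by smallest region p, 2 by smallest cortisol p, and the 5 most and 3 least alike genes by r; others are named for their role. The fits were tested on simulated data: of 100 probes changed by 1 log2 unit between regions, 68% were recovered without and 93% with the lamb block. Another 100 probes in the same data were changed by 2 log2 units. Those data held no slide or brightness effect and no correlation between probes, so the shares can differ on the real arrays. The number of arrays limits the precision.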

Additional observations from a re-analysis of the deposited data

Results flagged for a closer look

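The overlapping HAND1 probe in control 5 lay apart from the other control lambs, with a septum minus LV difference of -2.65 on the log2 scale against -1.23 to -1.12 in the other 4. Its septum spot was the dimmest of all HAND1 spots, at 10.8 units, and the leading probe gave -1.74 in that lamb. YWHAE on the LV array of cortisol 5, at a level of 1.78, lay below the other 4 LV cortisol arrays (2.89 to 3.26). These were 2 of 46 groups checked, and chance marks about 1 in 20.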

How the results depend on the processing

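HAND1 stayed lower in septum under all 42 alternatives run on the mean of both treatments (-1.50 to -0.66), and 14 of them lost the call: normexp on all spots (-0.66, or -0.66 with the lamb replicate block), no scaling (-0.75), slide as a block (-1.50), slide 2 alone (-1.24) and 9 of 10 fits without 1 lamb (-1.50 to -1.30 over the 10, limma adjusted p 0.0120 to 0.152). With the lamb replicate block all 10 such fits passed (adjusted p 1.22e-04 to 0.00178). The fixed and random lamb replicate blocks both gave calls in control lambs (-1.48) and in cortisol lambs (-1.32).

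The count of 40 probes between regions was 63 with quantile normalization, 1 with normexp, 289 with normexp without 12 spots, 99 without the detection filter, 79 with detection on every array, 1846 and 2162 with fixed and random lamb replicate blocks, 0 with slide as a block, 0 on slide 2, and 2 to 289 without 1 lamb.

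The cortisol difference turned to -1.15 in the LV (1 cortisol array, so only its size is given) and -0.27 in septum on slide 2, and to -0.0062 without LV cortisol 1 (-0.0062 to 0.59 over the 10 fits without 1 LV array; 0.25 to 0.70 in septum). In septum it was 0.0072 without scaling, 0.11 with normexp on all spots and 0.12 (SE 0.42) with the log2 75th percentile as a covariate. In the LV these settings gave 0.20, 0.19 and 0.22 (SE 0.30). The difference of the cortisol effects turned to -0.0801 with normexp, -0.19 without scaling and -0.0434 without cortisol 5 (-0.0434 to 0.36). A replicate block on the control and cortisol numbers, which did not pair the arrays (4 of 5 pairs correlated above 0.1 in the LV, 3 of 5 in septum), left 0.29 (SE 0.29) in the LV and 0.46 (SE 0.15) in septum, with 0 probes called in each. Per-lamb and slide 2 means stayed below 0 in all alternatives.

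Of the other named genes, with the lamb replicate block, CD93 turned to -0.0273, SMAD5 to -0.0251, BMP4 to -0.40 and SLC25A20 to -0.10 under normexp without 12 spots, BMP4 to -0.0477 under normexp on all spots, and MB to 0.0897 with quantile normalization, 0.095 with outlier spots kept and 0.022 under normexp without 12 spots. The cause of these changes was not tested, other than the 12 spots. No scaling, the brightness covariate, the 12 spots and the blocks combined with scaling were chosen after seeing the data. The deposited table has no HAND1 value in septum, so that alternative was not run there. Leading-probe processed signals were 33.6 to 158 units, and raw spot means were 59.7 to 202 units against local backgrounds of 16 to 29 units. The part of signal strength in these changes was not tested, nor was that of the 50 units that normexp adds to every spot.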

Other observations

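The authors' deposited table gives the leading HAND1 probe in the LV only, on a log2 scale with a column median of 6.71 to 6.72. Its values were 6.98, 6.68, 7.52, 6.35 and 6.74 in control 1 to 5, and 8.25, 6.92, 7.91, 6.38 and 6.12 in cortisol 1 to 5. Cortisol 1 was again the highest and cortisol 5 the lowest, and the cortisol minus control difference was 0.26 (SE 0.39, limma adjusted p = 0.912). The septum cells of both HAND1 probes are empty in that table, as are 5453 cells of each septum column of 10373 probes.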
